A study of Arabidopsis thaliana with 12 samples.

Results

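Aquaporins are the water channels of the major intrinsic protein family. The rule named 35 Arabidopsis genes by their AGI identifiers, out of the 23911 genes of the deposited table. They are 5 PIP1, 8 PIP2, 10 TIP, 9 NIP and 3 SIP genes, written here in the hyphenated form of their names. A row was found for 33 of them, and 31 passed the filter on low counts and were tested. TIP1-3 (AT4G01470) and NIP4-1 (AT5G37810) have no row and were not analysed here, and TIP3-2 (AT1G17810) and TIP5-1 (AT3G47440) lay below the filter. The measurements are poly(A) RNA sequencing counts, with 75 bp reads, from 12 samples of Arabidopsis thaliana seedlings aged 2 to 3 weeks, grown on medium with 1% sucrose. There were 3 samples in each of 4 groups: wild type Col-0 without abscisic acid (ABA), wild type sprayed with 50 µM ABA for 4 h, the mutant hda9-1 without ABA, and hda9-1 sprayed in the same way. ABA is the plant hormone of drought. The only mutant allele studied of the histone deacetylase gene HDA9 was hda9-1. The level of HDA9 was 15.7 to 17.1 CPM in wild type and 4.72 to 5.87 CPM in hda9-1, so some transcript remained. Counts per gene do not show whether that RNA was intact. The labels' treatment field goes against the titles, which were followed. The labels name no mock-sprayed control, so the hormone and the 4 h that passed cannot be told apart. They call the samples biological replicates without naming separate cultures, so p-values measure only the spread between these samples.

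Aquaporins sit in membranes as tetramers and let water, and in some members small neutral solutes, pass along osmotic gradients. PIPs are the channels of the plasma membrane. PIP2 members are the stronger water channels, and PIP1 members often need a PIP2 partner to reach the plasma membrane. TIPs belong to the membrane of the vacuole, NIPs carry boric acid, arsenite and other solutes more than water, and SIPs are found in the endoplasmic reticulum. ABA and drought are known to act on aquaporins both through transcript level and through phosphorylation, trafficking and breakdown of the protein, which RNA counts do not show.

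The pore is lined by the ends of a pair of short helices, each of which carries a conserved box. In the coding sequence this box was sought in frame as AAC or AAT, then CCN, then GCN. All 5 PIP1, all 8 PIP2 and all 10 TIP genes held it in 2 places. Of the 9 NIP genes 4 held it in 2 places, 4 in 1 place and NIP5-1 in 0 places, and each of the 3 SIP genes held it in 1 place. The stretches below are shown because the box differs at its last codon among these members. Each is 33 bases of coding sequence from RefSeq's TAIR10.1 annotation, 5′ to 3′, around the box of the first helix, with its 3 codons in capitals.
PIP2-1 (chromosome 3): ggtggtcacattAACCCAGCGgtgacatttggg
TIP2-1 (chromosome 3): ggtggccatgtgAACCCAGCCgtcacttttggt
NIP1-1 (chromosome 4): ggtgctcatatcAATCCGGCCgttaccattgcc
NIP5-1 (chromosome 4): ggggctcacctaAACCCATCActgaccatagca
SIP1-1 (chromosome 3): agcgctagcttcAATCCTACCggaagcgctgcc
SIP2-1 (chromosome 3): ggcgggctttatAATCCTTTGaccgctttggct
The last of the capital codons is GCN in PIP2-1, TIP2-1 and NIP1-1, TCA in NIP5-1, ACC in SIP1-1 and TTG in SIP2-1. Coding sequences were 79.8 to 87.6% identical among PIP1 genes and 71.9 to 94.8% among PIP2 genes, against 59.4 to 81.7% among TIP and 61.6 to 88.1% among NIP genes. The closest pair was PIP2-2 with PIP2-3, neighbours on chromosome 2, at 94.8%. Of the 75-base stretches of their transcripts 15.1 and 16.8% were shared word for word, so the split of reads between these neighbours is uncertain.

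In untreated wild type the levels ran from above 1000 to below 1 on a per-length scale. They are given here as CPM (counts divided by the TMM-scaled library size, per 1000000) per kilobase of exon, so that genes can be set side by side. The vacuolar channel TIP1-2 (AT3G26520) was the highest at 1626 ± 68.3 CPM per kb (SD, n = 3), and TIP2-1 (AT3G16240), also known as delta-TIP, followed at 951 ± 55.5. PIP2-7 (AT4G35100) came next at 605 ± 4.98, then PIP1-2 (AT2G45960) at 503 ± 28.3 and PIP2-1 (AT3G53420) at 405 ± 2.75. The ranges of neighbours did not overlap among the 13 highest genes. TIP2-2 and SIP1-1, at ranks 13 and 14, were the first neighbours in the order that did overlap. PIP1-3, TIP1-1, PIP1-5, PIP1-1, PIP2-6 and PIP2-2 lay between 326 and 133 CPM per kb. NIP genes were low: the highest, NIP1-1, stood at 16.0 ± 1.41 and NIP5-1 at 9.69 ± 0.611 CPM per kb. The 5 highest genes held 72.6 to 73.3% of the family's summed level in untreated wild type, and 69.2 to 71.0% in hda9-1 after ABA.

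**Figure D1:**
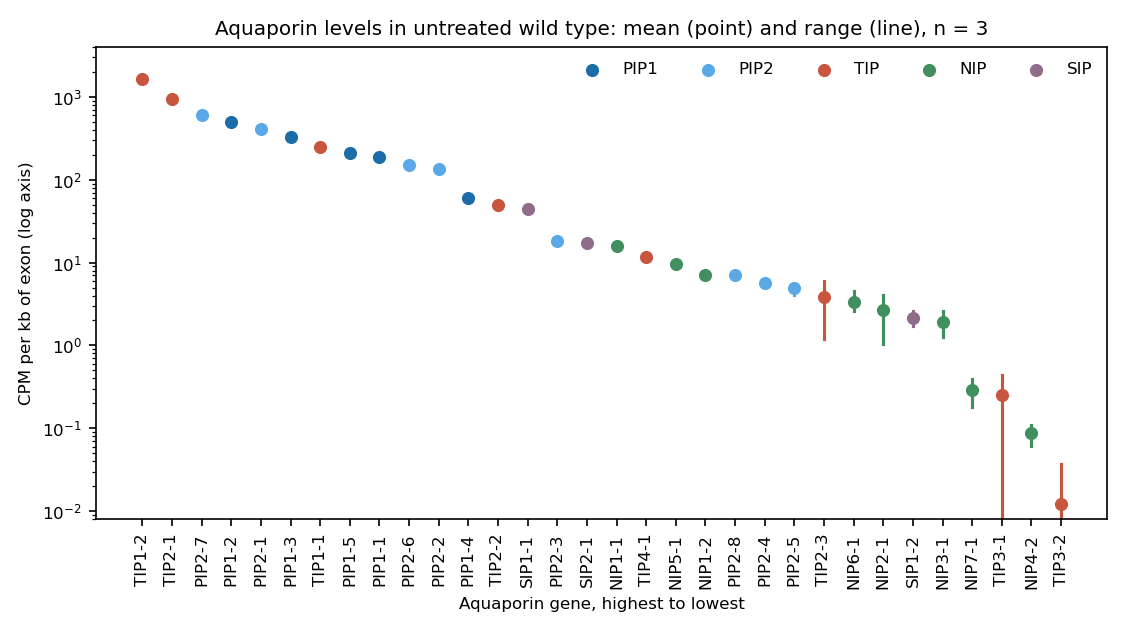
Level of each aquaporin in untreated wild type, in CPM per kilobase of exon on a log axis, ordered from highest to lowest and coloured by subfamily. Points are means and lines run from the lowest to the highest of the 3 samples, and a line that ends at the bottom of the axis includes a sample with 0 counts. TIP5-1, with 0 counts in these samples, is left out.

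The family took 0.679 to 0.872% of all counts per sample. In untreated wild type TIP genes made up 51.5 ± 0.667% of its summed level per kilobase, PIP2 genes 23.7 ± 0.614%, PIP1 genes 22.9 ± 0.649%, SIP genes 1.13 ± 0.0757% and NIP genes 0.733 ± 0.0753%. After ABA the TIP share of wild type was 46.1 ± 0.780% and the PIP2 share 27.0 ± 0.108%, and in hda9-1 these shares were 50.9 ± 0.593 and 23.4 ± 0.0409% without and 46.4 ± 1.55 and 25.9 ± 1.32% with ABA. The summed NIP level was 40.7, 44.0 and 38.3 CPM per kb in untreated wild type (replicates 1 to 3) and 27.7, 25.3 and 26.5 after ABA, without overlap. In hda9-1 it was 29.5, 33.5 and 26.8 without and 23.2, 21.2 and 24.6 with ABA. Untreated mutant samples thus lay below all untreated wild-type samples. SIP sums went the other way, from 59.6, 62.6 and 68.5 to 77.6, 75.0 and 90.2 in wild type and from 66.8, 70.4 and 62.2 to 104, 87.9 and 94.8 in hda9-1. Sums over chosen members are descriptions and carry no test. Single members weigh heavily in them. In wild type NIP1-1 went from 16.0 to 4.64 CPM per kb after ABA, SIP1-1 from 44.3 to 60.0 and TIP2-1 from 951 to 689. NIP1-2 went against the NIP sum, from 7.06 to 9.67. The sum over all measured aquaporins overlapped between all groups. It was 5610 ± 185 CPM per kb in untreated and 5722 ± 597 in treated wild type, and 5325 ± 442 and 5244 ± 432 in hda9-1.

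**Figure D2:**
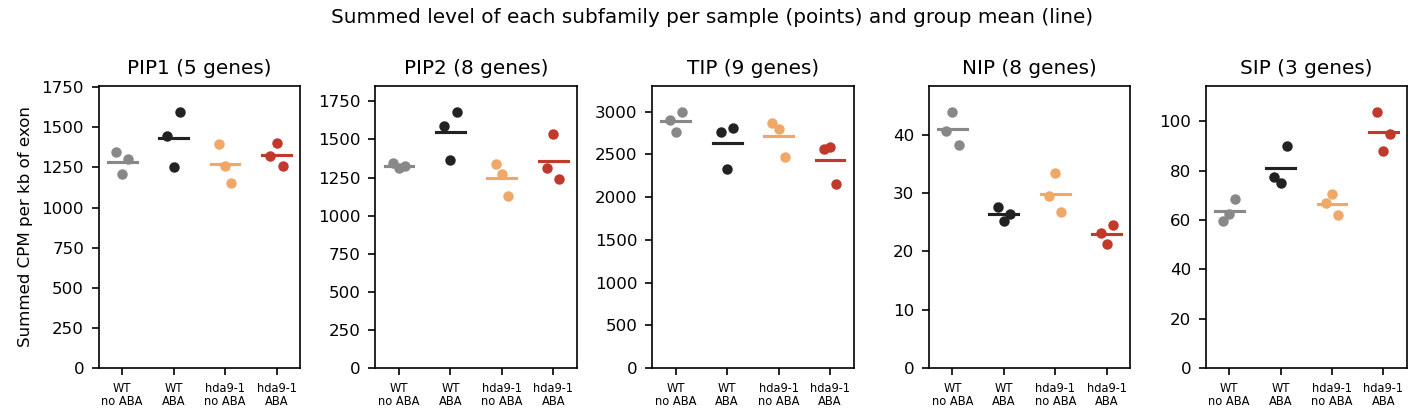
Summed level of each subfamily in CPM per kilobase of exon, by group, each axis starting at 0. Points are the 3 samples of a group and lines are means. NIP sums are lower and SIP sums higher after ABA in both genotypes.

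The first question was how aquaporin transcripts respond to ABA in wild-type seedlings. The subfamilies did not move as blocks: 6 of 31 tested members rose and 6 fell (edgeR quasi-likelihood test, Benjamini-Hochberg adjusted p below 0.05 over all 20924 tested genes). PIP1-1, PIP1-4, PIP2-1, PIP2-5, NIP1-2 and SIP1-1 rose, and PIP2-4, PIP2-8, TIP2-1, NIP1-1, NIP2-1 and NIP5-1 fell. Over all tested genes 17% were called higher and 14% lower, so the shares called among aquaporins were near the background. With upper-quartile scaling the split over all genes was 3024 higher and 3964 lower, and with library size alone 3073 and 3603. The median log2 fold change was 0.10 for PIP1, 0.05 for PIP2, -0.01 for TIP, -0.32 for NIP and 0.15 for SIP genes, against -0.02 over all tested genes. Groups did not overlap at 8 members on the higher and 7 on the lower side, where 25.2 and 26.4% of all genes did not overlap. All 10 ABA-induced marker genes rose, and their median was 5.77 on the log2 scale.

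Among plasma membrane channels, PIP2-1 (AT3G53420, chromosome 3, 19803473 to 19805730, minus strand, TAIR10.1) changed most in absolute terms. PIP2-1 is a major water channel of roots and leaves and a known substrate of the ABA-activated kinase OST1 in guard cells. Its level was 638, 640 and 632 CPM in untreated wild type and 993, 919 and 1152 CPM after ABA. Every treated sample lay above every untreated one, and the rise was 0.68 ± 0.12 on the log2 scale (SE, adjusted p = 5.4e-04). PIP1-1 (AT3G61430) rose with it, from 299, 281 and 292 to 429, 374 and 536 CPM (0.62 ± 0.14, adjusted p = 0.0029). PIP2-5 (AT3G54820), a channel known to be induced by drought, was low throughout, at 9.26, 7.29 and 9.58 CPM without and 12.4, 14.1 and 12 CPM with ABA. Its groups did not overlap (0.56 ± 0.15, adjusted p = 0.010), and the call was lost without untreated wild type replicate 2 (adjusted p = 0.058). PIP1-4 (AT4G00430) went from 124, 115 and 123 to 146, 164 and 143 CPM (0.32 ± 0.10, adjusted p = 0.020). That small rise was not called without untreated wild type replicate 2 (adjusted p = 0.082) or treated replicate 2 (0.097), nor with upper-quartile factors (0.067) or library size alone (0.064).

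The plasma membrane channels that fell were minor ones. PIP2-8 (AT2G16850) stood at 10.3, 9.96 and 10.8 CPM in untreated and 7.69, 5.96 and 6.76 CPM in treated wild type (-0.61 ± 0.20, adjusted p = 0.034). PIP2-4 (AT5G60660), a root channel, stood at 7.91, 8.70 and 7.85 CPM and then at 5.39, 5.51 and 5.49 CPM (-0.58 ± 0.19, adjusted p = 0.027). Neither overlapped between groups, but both calls were near the threshold. PIP2-4 was not called when any 1 of the 6 wild-type libraries was left out (adjusted p = 0.056 to 0.087), and PIP2-8 when any 1 of 5 of them was (0.062 to 0.12), all but treated replicate 1. Other abundant PIP genes were not called. PIP1-2 overlapped between groups, at 847, 757 and 808 CPM without and 860, 772 and 956 CPM with ABA (0.10 ± 0.10, adjusted p = 0.47). PIP2-7 and PIP1-3 had log2 fold changes of -0.13 ± 0.10 and 0.03 ± 0.10. PIP2-2, PIP2-3, PIP2-6 and PIP1-5 lay between -0.08 and 0.18 and were not called either.

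In the vacuolar subfamily, TIP2-1 (chromosome 3, 5505360 to 5507050, plus strand) was the 1 member called. Its level fell from 1182, 1057 and 1155 CPM in untreated wild type to 913, 720 and 825 CPM after ABA (-0.47 ± 0.11, adjusted p = 0.0033), without overlap. On the opposite strand TIP2-1 overlaps a long noncoding RNA (AT3G03265) by 445 nt and the gene PnsB3 by 120 nt. Whether the authors counted by strand is not given in the sources used here. Neither gamma-TIP gene was called, although these genes hold the largest part of vacuolar channel transcript. TIP1-2 was at 2052, 2042 and 2199 CPM without and 2159, 1841 and 2248 CPM with ABA (-0.01 ± 0.11, adjusted p = 0.96), and TIP1-1 had a fold change of 0.00 on the same scale, rounded, with an SE of 0.09. TIP2-2 (AT4G17340), mostly a root channel, overlapped between groups, at 75.4, 57.7 and 67.6 against 94.5, 73.2 and 117 CPM. Its difference of 0.50 ± 0.22 was not called (adjusted p = 0.11), though it was with DESeq2 (adjusted p = 0.035) and without untreated hda9-1 replicate 1 (0.045). TIP4-1 had -0.27 ± 0.16 (adjusted p = 0.21) and TIP2-3 0.21 ± 0.48 (adjusted p = 0.78).

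The seed and pollen members of the TIP group gave almost no counts. TIP3-1 (AT1G73190), a channel of the protein storage vacuoles of seeds, had 29, 18 and 0 counts in untreated and 2, 2 and 4 in treated wild type (-2.37 ± 1.11, adjusted p = 0.12), and was called without untreated replicate 3 (adjusted p = 0.036). TIP3-2 had 0, 0 and 2 counts, then 10, 0 and 11. The pollen channel TIP5-1 had at most 6 counts in any of the 12 samples. Seed markers summed to 0.649 to 2.94 CPM in untreated and 6.46 to 9.04 CPM in treated wild type over the 13 of 14 listed genes that have a row, with EM6 and EM1 called higher. In hda9-1 these sums ran from 0.0919 to 4.28 and from 9.80 to 14.1 CPM. Pollen markers, 5 of 9 with a row, summed to 8.74 to 16.2 CPM over all samples, nearly all of it ANX1.

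Among called members, the largest proportional changes in wild type were those of NIP2-1 and NIP1-1. NIP1-1 (AT4G19030, chromosome 4, 10421521 to 10423508, minus strand), a channel known for arsenite uptake, fell from 22.1, 25.6 and 21.9 CPM in untreated wild type to 7.36, 5.51 and 7.35 CPM. The groups lay far apart (-1.78 ± 0.16, adjusted p = 3.3e-07). NIP5-1 (AT4G10380), the boric acid channel of root uptake, fell from 21.2, 22.2 and 19.6 to 12.4, 13.9 and 13.7 CPM (-0.66 ± 0.12, adjusted p = 6.7e-04), also without overlap. NIP2-1 (AT2G34390), a channel known to be induced by lack of oxygen, was low and variable. It had 82, 268 and 196 counts in untreated and 18, 62 and 50 in treated wild type, or 1.48, 5.63 and 4.24 against 0.427, 1.21 and 1.04 CPM. The fall of 2.07 had an SE of 0.60 (log2 fold change -2.07, adjusted p = 0.019). It was not called without untreated replicate 2 (adjusted p = 0.073) or 3 (0.051), without treated replicate 1 (0.069) or 3 (0.054), nor with limma-voom (0.057). A long noncoding RNA on the opposite strand covers 1432 nt of NIP2-1. NIP1-2 (AT4G18910), the nearest relative of NIP1-1 at 85.1% identity of coding sequence, rose instead, from 10.1, 10.5 and 9.86 to 15.6, 13.1 and 13.1 CPM (0.45 ± 0.12, adjusted p = 0.0099). That call was lost without treated replicate 1 (adjusted p = 0.059).

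The other NIP genes were not called. NIP3-1 had -0.83 ± 0.31 (adjusted p = 0.054), and NIP6-1, which carries boric acid in shoots, 0.18 ± 0.24. The anther channel NIP7-1 had 3 to 34 counts per sample, and NIP4-2, a pollen channel, had 0 to 19. In the endoplasmic reticulum group SIP1-1 (AT3G04090, chromosome 3, 1071984 to 1074244, minus strand) rose from 53.7, 55.8 and 62.3 to 74.0, 70.7 and 87.7 CPM (0.44 ± 0.10, adjusted p = 0.0031), without overlap. SIP2-1 (0.15 ± 0.11) and SIP1-2 (-0.13 ± 0.26) were not called in wild type.

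**Figure D3:**
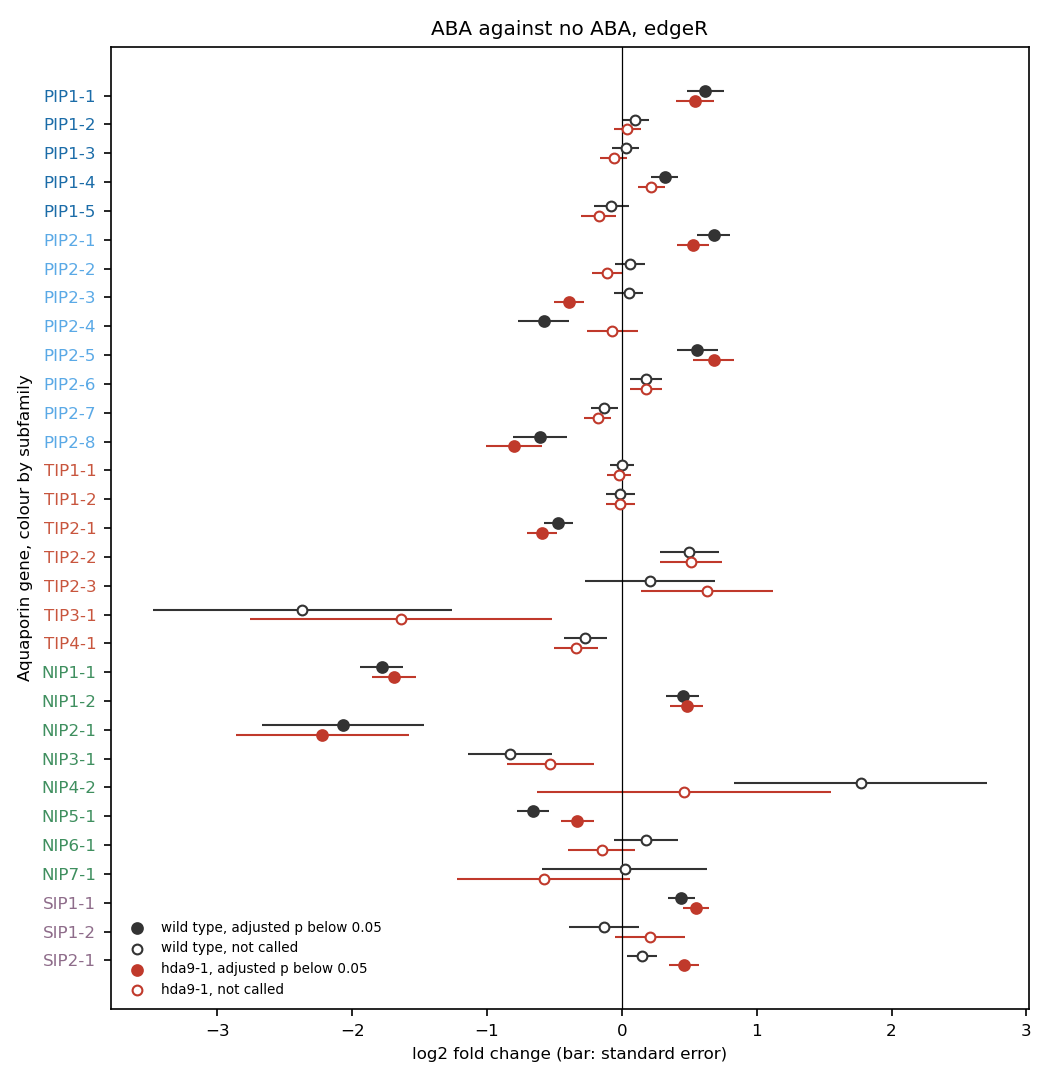
Log2 fold change of each tested aquaporin after ABA, in wild type (dark) and hda9-1 (red), with standard errors, and filled points passed an adjusted p of 0.05. In both genotypes NIP1-1 and NIP2-1 lie far to the left, and PIP1-1, PIP2-1 and PIP2-5 lie to the right of 0.

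In hda9-1, too, 6 of 31 tested aquaporins rose and 6 fell, against 23.3 and 18.6% of all tested genes. After removal of trends with exon length and GC content the split over all genes was 4050 higher and 5045 lower. Groups did not overlap at 6 members on each side, against 25.3 and 21.3% of all genes. Of the aquaporins 5 were called higher and 5 lower in both genotypes, 2 in wild type only (PIP1-4 and PIP2-4) and 2 in hda9-1 only (PIP2-3 and SIP2-1). Subfamily medians were 0.04 for PIP1, -0.09 for PIP2, -0.02 for TIP, -0.43 for NIP and 0.46 for SIP genes, against 0.01 over all genes. PIP2-1 rose from 694, 618 and 541 to 816, 1061 and 794 CPM (0.53 ± 0.12, adjusted p = 0.0029), PIP1-1 from 297, 237 and 209 to 370, 389 and 319 CPM (0.54 ± 0.14, adjusted p = 0.0057). In both cases each treated mutant sample lay above each untreated one. NIP1-1 fell from 14.4, 16.5 and 11.9 to 4.82, 3.69 and 4.76 CPM (-1.69 ± 0.16, adjusted p = 6.1e-07), and TIP2-1 from 1058, 1004 and 909 to 706, 673 and 590 CPM (-0.59 ± 0.11, adjusted p = 3.5e-04).

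Members at lower levels were called in hda9-1 as well. PIP2-5 rose from 7.29, 6.90 and 8.71 to 10.6, 11.6 and 14.4 CPM (0.68 ± 0.15, adjusted p = 0.0022). PIP2-8 fell from 7.65, 11.5 and 14.0 to 4.75, 6.58 and 7.61 CPM (-0.80 ± 0.21, adjusted p = 0.0052), and its untreated samples were spread widely. NIP1-2 rose from 10.4, 12.1 and 11.2 to 16.7, 13.7 and 16.8 CPM (0.48 ± 0.12, adjusted p = 0.0047). SIP1-1 rose from 63.4, 66.5 and 59.9 to 103, 87.7 and 87.7 CPM (0.55 ± 0.10, adjusted p = 3.3e-04), and SIP2-1 (AT3G56950) from 20.0, 21.8 and 18.8 to 27.8, 23.5 and 31.9 CPM (0.46 ± 0.11, adjusted p = 0.0035). SIP2-1 overlaps the chlorophyll synthesis gene CRD1 by 147 nt and a long noncoding RNA (AT3G08805) by 203 nt, both on the opposite strand. NIP2-1 fell from 2.11, 3.03 and 1.32 to 0.0923, 0.547 and 0.728 CPM (-2.22 ± 0.64, adjusted p = 0.013), and was not called with limma-voom (adjusted p = 0.061). NIP5-1 went from 15.4, 14.9 and 11.3 to 11.4, 10.8 and 10.8 CPM, and the groups overlapped. Its change (-0.33 ± 0.12, adjusted p = 0.040) was not called when any 1 of 5 mutant libraries, untreated wild type replicate 2 or treated wild type replicate 3 was left out (0.050 to 0.14), nor with limma-voom (0.066) or in a fit on these groups only (0.099).

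The difference between the responses was tested as the interaction of genotype and ABA. It was called for 0 of 31 aquaporins, as it was for 0% of all genes. Without treated hda9-1 replicate 2 it was called for 1052 genes on the higher and 560 on the lower side, and with DESeq2 for 112 and 17, among them 0 aquaporins each time. At an unadjusted p below 0.05 there was 1 aquaporin, PIP2-3, among 11.8% of all genes, and limma-voom and DESeq2 called 0 aquaporins. PIP2-3 (AT2G37180), known also as the drought-response gene RD28, was at 24.3, 20.5 and 21.5 CPM in untreated and 23.3, 22.1 and 23.2 CPM in treated wild type. In hda9-1 it stood at 19.7, 18.7 and 20.6 CPM without and 17.0, 13.5 and 14.6 CPM with ABA. So the treated mutant samples alone lay below all others. The log2 difference of the responses was -0.44 (95% interval -0.76 to -0.12, adjusted p = 0.31). With its neighbour PIP2-2 added, whose reads it partly shares, the treated mutant samples ran from 161 to 194 CPM and the treated wild-type samples from 183 to 234 CPM, which overlap. For the genes that moved most the interval of the difference included 0, as for NIP1-1 (0.09, -0.38 to 0.57), PIP2-1 (-0.15, -0.52 to 0.22), TIP2-1 (-0.13, -0.45 to 0.19) and NIP5-1 (0.32, -0.05 to 0.69). Such intervals do not show that the responses were equal.

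**Figure D4:**
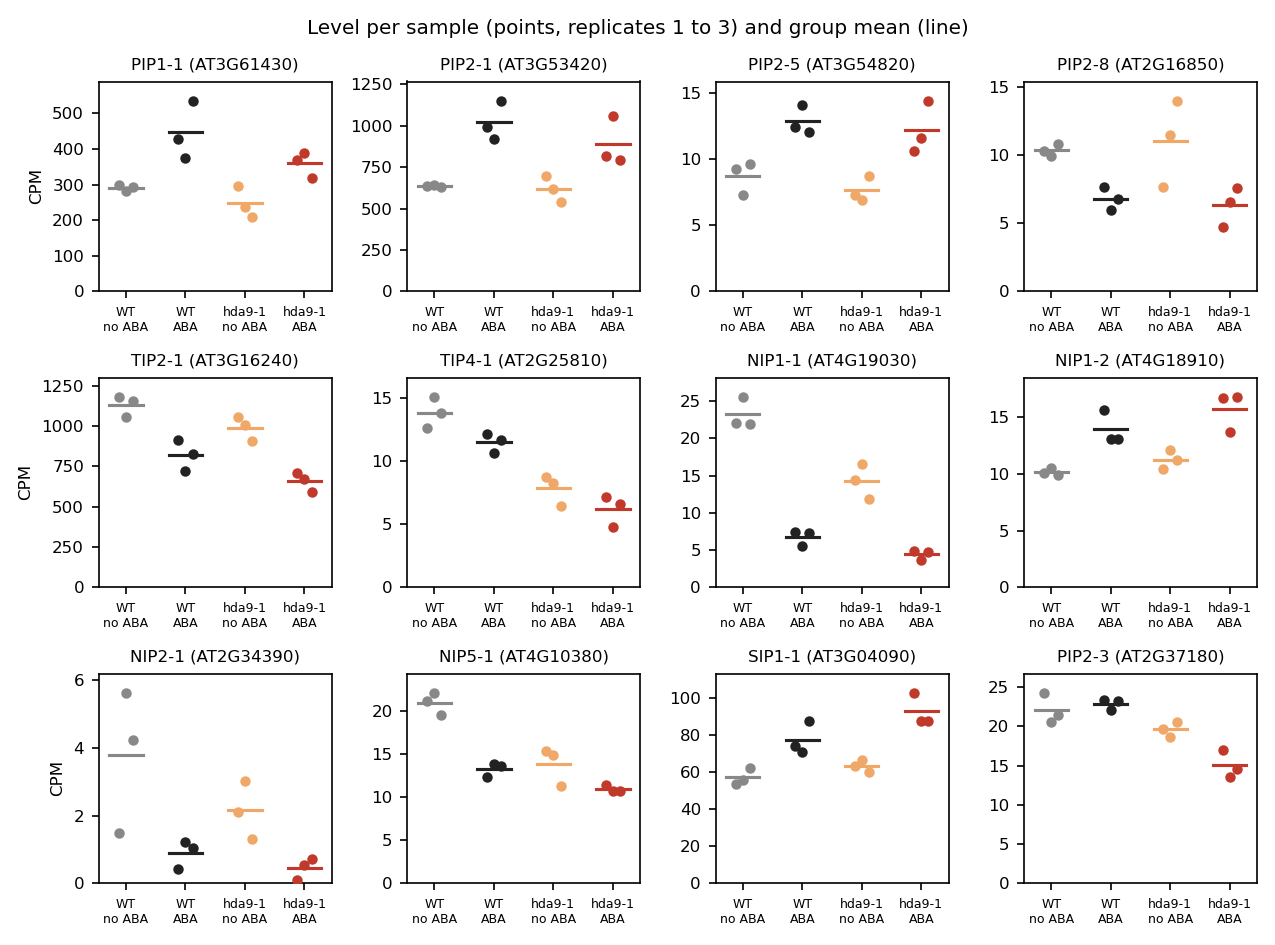
Level in CPM of 12 aquaporins in each of the 12 samples, by group, with group means as lines and each axis starting at 0. NIP1-1 is lower after ABA in both genotypes and lower in hda9-1 than in wild type under both treatments, and PIP2-1 and PIP1-1 are higher after ABA.

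Between genotypes, few aquaporins were called, and those called were lower in the mutant. With 31 tested members, the share called was near that over all genes under both treatments. So few calls do not set a direction for the family. Without ABA, TIP4-1, NIP1-1 and NIP5-1 were lower in hda9-1 than in wild type, 3 of 31 members, where 6.57% of all genes were called lower and 6.98% higher. With library size alone the split over all genes was 980 higher and 1810 lower, and with length and GC trends removed 2364 and 1254. By edgeR, limma-voom and DESeq2 alike 0 members were called higher. At an unadjusted p below 0.05 there were 1 higher and 4 lower, against 28.6% of all genes in either direction. Groups did not overlap at 1 member on the higher and 4 on the lower side, against 17 and 19.6% of all genes. Medians were -0.03 for PIP1, -0.10 for PIP2, -0.36 for TIP, -0.55 for NIP and -0.12 for SIP genes, against -0.04 over all genes. With ABA, PIP2-3, TIP4-1 and NIP1-1 were lower, against 5.21% of all genes lower and 7.5% higher, or 1372 lower and 1164 higher with library size alone. Again 0 were called higher by edgeR, limma-voom and DESeq2. At an unadjusted p below 0.05 there were 1 higher and 7 lower, against 29.3% of all genes in either direction. Groups did not overlap at 0 members on the higher and 6 on the lower side, against 15.2 and 14.3% of all genes. Without treated hda9-1 replicate 2 there were 6 lower members, while the calls over all genes went from 1570 higher and 1090 lower to 2550 and 2090. Without treated wild type replicate 3 there were 2 lower and 1 higher, and over all genes 610 lower and 917 higher. Medians here were -0.11, -0.15, -0.12, -0.57 and 0.18 for PIP1, PIP2, TIP, NIP and SIP genes, against 0.01 over all genes.

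TIP4-1 (AT2G25810, chromosome 2, 11012499 to 11014171, plus strand), a vacuolar channel of roots, set the genotypes apart under both treatments. It stood at 12.6, 15.1 and 13.8 CPM in untreated wild type and 8.76, 8.25 and 6.46 CPM in untreated hda9-1 (-0.82 ± 0.16, adjusted p = 0.0040). After ABA it stood at 12.1, 10.6 and 11.7 CPM against 7.15, 4.80 and 6.57 CPM (-0.89 ± 0.16, adjusted p = 0.0034). Each mutant sample lay below each wild-type sample. NIP1-1 was lower by 0.70 without ABA (log2 fold change -0.70 ± 0.15, adjusted p = 0.0080) and by 0.61 with ABA (-0.61 ± 0.16, adjusted p = 0.025), from the levels given above. The second of these calls was lost without treated wild type replicate 1 (adjusted p = 0.10) or 3 (0.086), with limma-voom (0.070) and in a fit on these groups only (0.084). NIP5-1 was lower without ABA (-0.60 ± 0.12, adjusted p = 0.0053) and was not called with ABA (-0.28 ± 0.12, adjusted p = 0.14). PIP2-3 was lower with ABA (-0.61 ± 0.11, adjusted p = 0.0027). None of the 5 most abundant members was called. TIP2-1 had -0.19 ± 0.11 without ABA (adjusted p = 0.25) and -0.32 ± 0.11 with ABA (adjusted p = 0.058), where each mutant sample lay below each wild-type sample. TIP1-2, PIP2-7, PIP1-2 and PIP2-1 had log2 differences between -0.20 and -0.02.

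**Figure D5:**
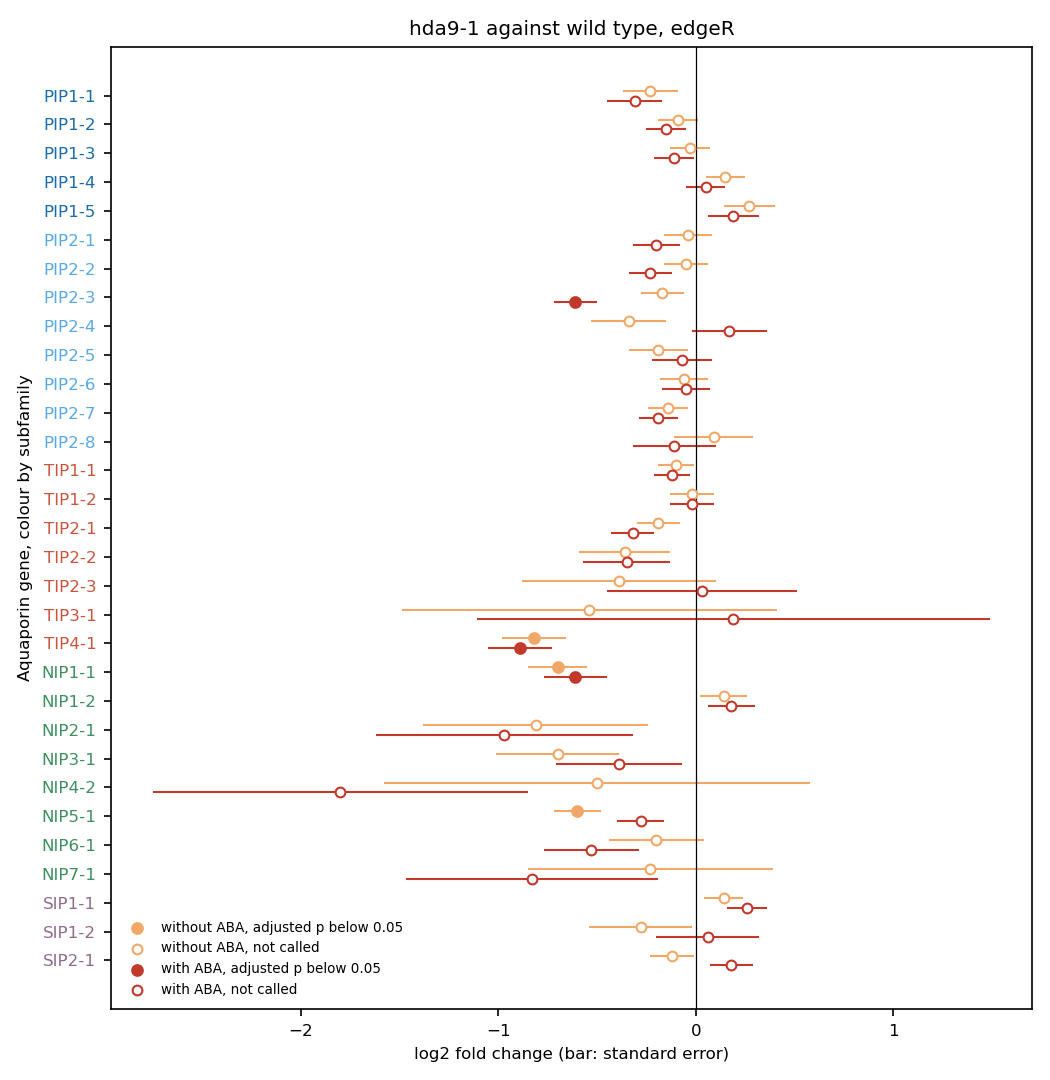
Log2 fold change of each tested aquaporin in hda9-1 against wild type, without ABA (orange) and with ABA (red), with standard errors, and filled points passed an adjusted p of 0.05. TIP4-1 and NIP1-1 are filled under both treatments, at -0.82 and -0.89 and at -0.70 and -0.61.

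Some markers of root tissue differed in the same direction as NIP1-1 and NIP5-1, and most in each comparison were not called. Of 17 root markers 5 fell and 1 rose after ABA in wild type, against 14 and 17% of all tested genes. In hda9-1 7 fell and 1 rose, against 18.6 and 23.3%. Between genotypes 3 were lower in hda9-1 without ABA, against 6.57% of all genes, and 1 with ABA, against 5.21%. The summed level of root markers was 317 to 373 CPM in untreated and 140 to 182 CPM in treated wild type, and 207 to 314 and 96.0 to 125 CPM in hda9-1. Without the iron transporter IRT1, the most abundant of them, it was 156 to 168, 115 to 141, 118 to 130 and 89.0 to 111 CPM in the same order. None of the 17 was at 0 counts in all samples. In whole seedlings fewer cells of a type and less RNA per cell cannot be told apart, and the part of root tissue in the falls of NIP1-1, NIP5-1, PIP2-4 and TIP4-1 was not tested. Green shoot markers summed to 31017 to 38890 CPM over all samples and overlapped between groups. Of these 6 markers 1 was called, RCA, which fell after ABA in hda9-1 (-0.57 ± 0.14, adjusted p = 0.0032). Guard cell markers had 2 higher and 1 lower of 8 after ABA in wild type, against 17 and 14% of all tested genes. In hda9-1 2 were higher and 4 lower, against 23.3 and 18.6%. Between genotypes 1 of 8 was lower in hda9-1 without ABA (KAT1), against 6.57% of all genes. With ABA 3 were lower (KAT1, FAMA and SLAC1), against 5.21%. Under both treatments 0 were higher, against 6.98% of all genes without and 7.5% with ABA. The part of guard cells in the aquaporin differences was not tested. Guard cell markers summed to 2767 to 3384 and 2584 to 2716 CPM in wild type, and to 2480 to 2822 and 1969 to 2372 CPM in hda9-1, without and with ABA.

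Genes known to act on aquaporin proteins were called in both directions. Of 16 listed regulators and partners 5 rose and 2 fell after ABA in wild type, against 17 and 14% of all tested genes. In hda9-1 6 rose and 3 fell, against 23.3 and 18.6%. TSPO, a membrane protein that binds PIP2-7 and leads it to breakdown, went from 0.112 to 29.2 CPM in wild type and from 0.0134 to 29.2 CPM in hda9-1. The RNA of PIP2-7 was not called in either, and its protein was not measured. UBC32, a ubiquitin-conjugating enzyme, rose by 1.24 ± 0.09 and 1.44 ± 0.09. The kinase gene OST1 rose in both, from 17.5 ± 2.01 to 42.9 ± 4.88 CPM (SD, n = 3) in wild type and from 19.7 ± 1.83 to 45.4 ± 4.82 CPM in hda9-1. SIRK1, a receptor kinase known to activate aquaporins, fell in both (-0.53 ± 0.10 and -0.57 ± 0.10). Of the 7 listed borate exporters, genes of boron transport as NIP5-1 is, 6 were tested. BOR4 (2.91 ± 0.32 and 2.01 ± 0.31) and BOR5 (1.86 ± 0.22 and 1.17 ± 0.22) rose in both genotypes, and BOR3 fell (-0.38 ± 0.08 and -0.43 ± 0.08). BOR1, the exporter that loads boron into the xylem, fell in hda9-1 alone among the calls (-0.34 ± 0.13, adjusted p = 0.042). Its difference from wild type was not called. BOR2 was lower in hda9-1 than in wild type without ABA (-0.55 ± 0.15, adjusted p = 0.027) and with ABA (-0.71 ± 0.15, adjusted p = 0.0082). BOR5 was lower with ABA (-0.69 ± 0.21, adjusted p = 0.045). BOR7 was higher without ABA, at 3.25 ± 0.615 against 1.52 ± 0.261 CPM (SD, n = 3, adjusted p = 0.0082). BOR3 and BOR4 were not called between genotypes. Of all genes 6.98% were higher and 6.57% lower without ABA, and 7.5 and 5.21% with ABA. Of 11 proton pumps of the plasma membrane and the vacuole 4 rose and 1 fell in wild type, against 17 and 14% of all genes. In hda9-1 3 pumps rose and 2 fell, against 23.3 and 18.6%. Among them AHA11 rose by 0.96 ± 0.13 and 0.93 ± 0.13, the vacuolar subunit gene VHA-a2 by 0.45 ± 0.08 and 0.54 ± 0.08, and AHA2 fell (-0.66 ± 0.10 and -0.51 ± 0.10).

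The upstream sequences were searched for the core of the ABA-response element, ACGTG, on both strands, with overlapping matches counted as 1 place. In the 250 bases before the outermost annotated start it was found in 4 of 35 aquaporins (11.4%), against 23.8% of 23646 protein-coding nuclear genes of the table. The 35 include TIP1-3 and NIP4-1, which have no row in the table and hold no match. The 4 were TIP1-1, TIP3-1, TIP5-1 and SIP1-1, and of these SIP1-1 was called higher after ABA. TIP1-1 and TIP3-1 were tested and not called, and TIP5-1 lay below the filter. No PIP and no NIP gene held it in this window, PIP2-1 and NIP1-1 included. PIP1-1, PIP1-4, PIP2-1, PIP2-5 and NIP1-2 thus rose in wild type without a match, and the part of the motif was not tested. A match or its absence in these letters says nothing of the factors that bind. The windows of SIP1-1 (chr3:1074245-1074494, minus strand) and NIP1-1 (chr4:10423509-10423758, minus strand) are given 5′ to 3′ from RefSeq's TAIR10.1, since these genes moved in opposite directions, with the match in capitals.
SIP1-1: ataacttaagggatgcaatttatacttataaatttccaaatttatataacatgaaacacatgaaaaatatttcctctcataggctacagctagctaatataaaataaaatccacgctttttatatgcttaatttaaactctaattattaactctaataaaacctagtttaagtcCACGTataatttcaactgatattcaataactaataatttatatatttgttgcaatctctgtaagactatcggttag
NIP1-1: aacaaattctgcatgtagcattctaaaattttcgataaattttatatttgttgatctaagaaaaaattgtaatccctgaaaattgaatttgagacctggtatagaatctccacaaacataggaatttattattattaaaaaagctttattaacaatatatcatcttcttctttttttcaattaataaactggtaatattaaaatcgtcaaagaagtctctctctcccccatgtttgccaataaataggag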

How the data were processed

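The authors deposited whole-number counts per gene. Bowtie2, Salmon, limma 3.56 and build TAIR10 are named in the submitters' processing notes without role, so counts may be rounded estimates; counting by strand is not given in the sources used here. Groups follow the titles. Totals ran from 42703802 to 52820930 counts per sample. Genes were kept by filterByExpr (minimum count 10, total 15; 20924 genes, 99.99% of counts) and fitted in edgeR 4.0.16 (R 4.3.3) with TMM factors and a robust quasi-likelihood model of 4 group means over 12 samples. Tests were two-sided; SE values derive from the F statistic, and the 95% intervals use the t quantile at each gene's degrees of freedom in the test. Exon lengths, coordinates and sequences came from RefSeq's TAIR10.1, joined by gene identifier. Coding sequences were aligned with Biopython 1.88. The model was tested on simulated data. Members, lists and tests were chosen with earlier results of these data known. By the naming rule, values in every sample are given for the members with the smallest p in the wild-type ABA response. These were 4 each in PIP2, TIP and NIP, 3 in PIP1 and 1 in SIP. Members called between genotypes are given likewise. TIP1-2, TIP3-2 and SIP2-1 were added after their values were seen, as were BOR1 and the differences of borate exporters between genotypes. Alternatives were other scaling factors and filters, limma-voom 3.58.1, DESeq2 1.42.0, a replicate block, length and GC trends, compared groups only, a stricter threshold and each library left out. No replicate pair agreed within counting noise.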

Additional observations from a re-analysis of the deposited data

How the results depend on the processing

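Counts of called aquaporins were recomputed under 12 other settings and with each of the 12 libraries left out. For the ABA response of wild type, 4 to 7 members were higher and 3 to 7 lower over the left-out libraries. Over all genes these fits called 2814 to 4219 higher and 1893 to 3218 lower. There were 3 lower members without untreated replicate 2, where 3032 genes were higher and 2213 lower, or without treated replicate 3 (2814 and 1893). The main fit called 3551 and 2923 genes. At an adjusted p below 0.01 there were 3 lower members, and the share over all genes at that threshold is not given. In hda9-1 the ranges were 6 to 7 higher and 5 to 7 lower, against 4063 to 5259 and 3178 to 4313 over all genes. For hda9-1 against wild type with ABA they were 0 to 1 higher and 2 to 6 lower, and without ABA 0 higher and 3 lower. Over all genes, 630 to 2550 were higher and 445 to 2090 lower with ABA. Without ABA 747 to 2101 genes were higher and 602 to 1707 lower. Of 30 calls of single members 22 held whichever library was left out. No fold change changed sign among these 30 calls and the uncalled wild-type ABA responses of PIP1-2, TIP2-2, TIP3-1 and TIP4-1. The signs of other uncalled changes were not checked. Without the division by exon length, the shares of the family in untreated wild type were 25.2% for PIP1, 27.2% for PIP2, 45.7% for TIP, 0.828% for NIP and 1.04% for SIP genes, and with library size alone the PIP2 sum there was 1379 CPM per kb. Samples share only a replicate number (deviations of same-numbered samples correlated at -0.153 to 0.121, and 1 of 12 samples correlated best with its own number). With the replicate block the ABA response had 6 higher and 6 lower in each genotype, and the genotype comparisons 0 higher and 3 lower. Over all genes the block gave 3455 higher and 2782 lower in wild type, and 4717 and 3741 in hda9-1. Between genotypes it gave 1295 and 1244 without ABA, and 1372 and 972 with ABA. Counts of a few per sample limit TIP3-1, TIP3-2, TIP5-1, NIP4-2 and NIP7-1.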
